A study of Mus musculus with 12 samples.

Results

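The liver takes up circulating steroid hormones and changes them by oxidation and reduction before they are excreted or released again. In rodent liver several of these enzymes differ between the sexes, under the control of the pattern of growth hormone secretion. The 9 genes described here are *Hsd3b2*, *Hsd3b3*, *Hsd3b5*, *Hsd11b1*, *Srd5a1*, *Akr1d1*, *Akr1c6*, *Hsd17b2* and *Hsd17b13*. They were chosen by name as hepatic steroid-metabolizing enzymes, with earlier results of these data known. All 9 were found among the 24532 genes of the expression table. The Hsd3b enzymes are hydroxysteroid dehydrogenases, of which *Hsd3b5* is known as a male-specific liver form. *Hsd11b1* regenerates active glucocorticoid inside the endoplasmic reticulum. *Srd5a1* and *Akr1d1* reduce the same ring double bond of steroids such as testosterone, each to a different stereoisomer. *Hsd17b2* inactivates testosterone and estradiol by oxidation, and *Akr1c6* is a ketosteroid reductase. *Hsd17b13* carries the family name, sits on lipid droplets and is known for retinol dehydrogenase activity.

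Livers of 12 male mice on a C57BL/6 background were sequenced as polyadenylated RNA, 3 in each of 4 groups. WT mice carried floxed *Ahr* alleles (Ahr fl/fl) without detectable Cre. The *Ahr* HKO mice were Ahr fl/fl littermates with Alb-Cre, in which the albumin promoter directs deletion of the aryl hydrocarbon receptor (AhR) to hepatocytes, so that both genotypes carried the floxed alleles and other liver cells keep the gene. Feeding began at 10 to 12 weeks of age with either a control liquid diet or its Lieber-DeCarli ethanol counterpart (ethanol 5% by volume, supplying 36% of calories), and lasted 5 weeks. The livers of each group are separate animals drawn at random from a larger set. The comparisons ask what alcohol changes in the liver and how far this depends on AhR in hepatocytes. Whole liver was sequenced, so fewer cells of a type and less RNA per cell cannot be told apart.

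The libraries held 46306518 to 74336255 counted reads. CPM below are counts scaled to one common library total, with library sizes adjusted by TMM. *Ahr*, the targeted gene, measured 20.2, 16.6 and 18.3 CPM in WT control, 30.5, 20.8 and 23.5 in WT ethanol, 65.5, 41.3 and 63.3 in HKO control and 41.8, 32.1 and 24.7 in HKO ethanol. It was higher in the livers labelled HKO on the control diet (log2 FC 1.63, adjusted *P* = 0.00164). Counts over the whole gene do not separate the floxed exon, so *Ahr* checks nothing about the deletion. *Cyp1a2*, a gene that AhR is known to induce, was lower in the livers labelled HKO on the control diet (log2 FC -1.67, adjusted *P* = 0.0197) and on ethanol (log2 FC -0.73, adjusted *P* = 0.0433). By edgeR's test, ethanol raised *Cyp1a2* in WT (log2 FC 1.16, adjusted *P* = 0.0137) and in HKO (log2 FC 2.09, adjusted *P* = 0.00884). The HKO ethanol livers, at 629, 684 and 658 CPM, lay above the WT control livers, at 617, 398 and 456. *Xist* reached at most 7 counts in any library and *Ddx3y* at least 1647, as in male animals. These 2 genes, and *Fgb*, were chosen after their values were seen. The 8 hepatocyte markers summed to 51754 to 55947 FPKM in WT control, 55799 to 65978 in WT ethanol, 52379 to 69649.6 in HKO control and 54129 to 60117 in HKO ethanol. The 10 Kupffer cell and leukocyte markers summed to 178 to 225, 178 to 494, 161 to 433 and 96.0 to 113 FPKM in the same order. Of these, 8 of the 10 fell on ethanol in HKO, where 11.7% of all genes were called lower. The high livers were WT ethanol liver 2 and HKO control livers 1 and 2. The 6 cholangiocyte markers summed to 24.1 to 82.6, 28.1 to 43.2, 25.7 to 316 and 20.7 to 40.8 FPKM, the 8 stellate cell markers to 68.4 to 90.0, 111 to 143, 64.5 to 77.9 and 72.9 to 91.0, and the 8 endothelial markers to 109.8 to 136, 94.0 to 219, 117 to 135 and 86.6 to 94.3. *Fgb*, a fibrinogen gene of the acute phase response, measured 5869.5, 9432 and 7844 CPM in WT control, 4804, 3737 and 4856 in WT ethanol, 18784, 17280.2 and 23340.1 in HKO control and 5204, 4203 and 5056 in HKO ethanol. It is also 1 of the 8 hepatocyte markers summed above. In FPKM it stood at 10533, 10270 and 12458 in HKO control and at most 5158 in any other liver. The hepatocyte sum of HKO control therefore includes this rise. The part of these differences in the results below was not tested. Of 8 markers of steroid-producing glands, *Cyp11a1*, *Cyp11b1*, *Nr5a1* and *Mc2r* were listed at 0 in every library, and the 8 summed to 4.85 to 27.1, 14.7 to 51.0, 4.84 to 8.34 and 3.82 to 11.4 FPKM.

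Upstream sequences are shown for 4 of the enzymes, *Hsd3b5*, *Hsd3b2* and *Srd5a1*, which were lower on ethanol in WT, and *Hsd17b13*, which was higher. Each is the stretch of 250 bases before the RefSeq start site, read 5′ to 3′ on the gene's own minus strand (GRCm38.p6). For *Srd5a1* the 22 bases nearest the start lie inside the annotated gene and were left out. Capitals mark matches on either strand to GCGTG (the core of the element that AhR binds), TTCNNNGAA (the STAT5 palindrome), AGGTCA (a nuclear receptor half-site), TGTTCT (a steroid receptor half-site) or TATAAA. The windows are chr3:98645535-98645784 for *Hsd3b5*, chr3:98724544-98724793 for *Hsd3b2*, chr13:69611486-69611713 for *Srd5a1* and chr5:103977389-103977638 for *Hsd17b13*.
Hsd3b5: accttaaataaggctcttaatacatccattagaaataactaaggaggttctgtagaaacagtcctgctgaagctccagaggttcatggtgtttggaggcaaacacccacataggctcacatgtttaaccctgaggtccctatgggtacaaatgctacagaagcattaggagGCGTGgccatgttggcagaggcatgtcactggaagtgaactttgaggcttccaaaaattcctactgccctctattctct
Hsd3b2: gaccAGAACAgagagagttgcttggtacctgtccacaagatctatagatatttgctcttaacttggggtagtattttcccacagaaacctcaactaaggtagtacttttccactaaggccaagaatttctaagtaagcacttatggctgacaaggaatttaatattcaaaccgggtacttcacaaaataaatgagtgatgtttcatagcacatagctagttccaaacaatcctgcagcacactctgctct
Srd5a1: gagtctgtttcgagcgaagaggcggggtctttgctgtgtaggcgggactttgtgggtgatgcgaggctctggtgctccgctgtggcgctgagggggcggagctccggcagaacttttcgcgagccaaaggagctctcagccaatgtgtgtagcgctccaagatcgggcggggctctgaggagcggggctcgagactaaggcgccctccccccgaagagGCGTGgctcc
Hsd17b13: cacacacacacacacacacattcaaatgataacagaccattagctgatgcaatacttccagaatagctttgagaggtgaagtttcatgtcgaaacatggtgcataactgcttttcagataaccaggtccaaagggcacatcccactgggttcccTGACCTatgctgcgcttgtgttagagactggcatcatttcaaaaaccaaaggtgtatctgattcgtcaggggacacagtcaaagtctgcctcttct

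Upstream windows were matched for 8 of the 9 genes, all but *Hsd17b2*. The windows of *Hsd11b1* and *Hsd3b3* precede start sites that lie within the annotated genes, so these windows are wholly inside the gene spans, as are 195 bases of the *Akr1d1* window and 32 of the *Akr1c6* window. GCGTG stood in 3 of the 8, starting 79 bases before the start in *Hsd3b5*, 32 bases before it in *Srd5a1* and, on the opposite strand, 111 bases before the internal start of *Hsd11b1*. It stood in 28.2% of all 32851 windows of this length. *Akr1d1* held AGGTCA at 2 places and *Hsd17b13* at 1, and 14.0% of all windows held it. *Hsd3b2* held TGTTCT (16.1% of all windows) and *Akr1c6* TATAAA (12.4%). None of the 8 held TTCNNNGAA (7.02%), *Hsd3b3* held none of the motifs, and no matches overlapped. A match is a description of letters and not of a binding site. In local alignments of these windows among 6 Hsd3b genes, *Hsd3b3* and *Hsd3b5* matched over 204 columns with 154 identical (75.5%), the highest score of the 15 pairs. *Hsd3b2* and *Hsd3b3* matched over 110 columns with 66 identical (60.0%).

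*Hsd3b2* (98711107 to 98724543), *Hsd3b3* (98741476 to 98764540) and *Hsd3b5* (98618636 to 98645534) lie close together on chromosome 3 of GRCm38.p6. *Hsd11b1* lies on chromosome 1 (193221640 to 193264045), *Hsd17b13* on chromosome 5 (103955442 to 103977388), *Akr1d1* on chromosome 6 (37529978 to 37574921) and *Hsd17b2* on chromosome 8 (117700982 to 117759030). *Akr1c6* (4434311 to 4457530) and *Srd5a1* (69573449 to 69611485) are both on chromosome 13, far from each other.

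Levels were compared between the enzymes in FPKM, which is scaled to transcript length. *Akr1c6* had the highest mean over the 12 livers, 539 FPKM, followed by *Hsd11b1* with 278 and *Hsd17b13* with 267. *Hsd17b2* had 88.9, *Hsd3b3* 71.3, *Hsd3b5* 48.5, *Akr1d1* 38.2, *Srd5a1* 34.1 and *Hsd3b2* 14.1 FPKM. The 3 most abundant enzymes also varied least, the highest CPM of any liver being 2.11 times the lowest for *Akr1c6*, 2.78 times for *Hsd11b1* and 2.90 times for *Hsd17b13*. The same ratio was 13.0 for *Hsd3b3*, 8.87 for *Srd5a1*, 5.31 for *Akr1d1*, 4.31 for *Hsd3b2* and 3.03 for *Hsd17b2*. *Hsd3b5* ranged from no count to 256 CPM.

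**Figure D1:**
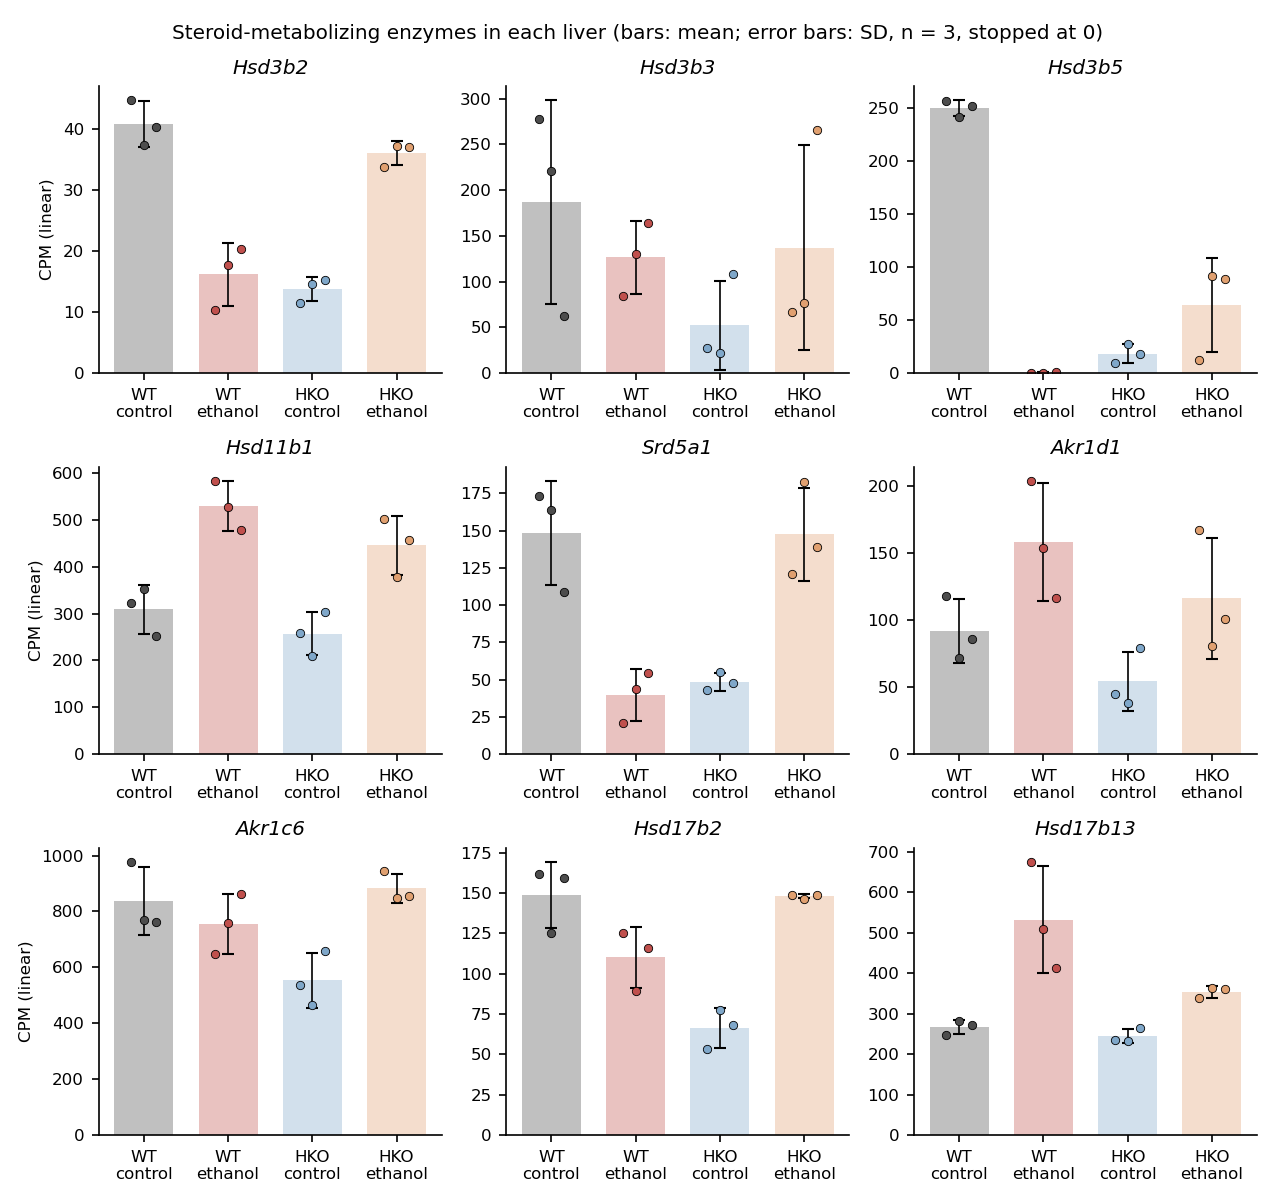
CPM of the 9 enzymes in each liver (linear axes from 0) for WT and HKO mice on the control and the ethanol diet; points are livers, bars group means and error bars SD (n = 3). *Hsd3b5* lies at 256, 241 and 252 CPM in WT control and at or under 0.605 CPM in WT ethanol.

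*Hsd3b5* spanned the widest range of the 9. It measured 256, 241 and 252 CPM in WT control, 0, 0.143 and 0.605 in WT ethanol, 9.15, 27.0 and 18.4 in HKO control and 12.5, 91.2 and 88.2 in HKO ethanol. The WT ethanol values come from 0, 9 and 38 reads. WT control was above and WT ethanol below every other liver, and the HKO groups overlapped between them. Ethanol lowered *Hsd3b5* in WT, with a log2 FC of -9.89 ± 0.76 (SE, n = 3 per group, adjusted *P* = 0.00138, edgeR's quasi-likelihood test, Benjamini-Hochberg over 14038 genes). Leaving out 1 liver at a time gave estimates from -11.6 to -9.38, all of them called. It was lower in HKO than in WT on the control diet (-3.78 ± 0.37, adjusted *P* = 0.00112). On ethanol it was higher in HKO (7.94 ± 1.14, adjusted *P* = 0.0381). This last call was lost without WT ethanol liver 1 (7.42) or 2 (7.66) and without HKO ethanol liver 2 (7.59) or 3 (7.65). Ethanol within HKO gave 1.82 ± 0.71, which did not pass (adjusted *P* = 0.0912). HKO ethanol liver 1 lay within the HKO control range, and without it the log2 FC was 2.31 and passed (adjusted *P* = 0.0138).

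*Srd5a1*, the steroid reductase, measured 173, 164 and 109 CPM in WT control, 20.5, 43.8 and 54.6 in WT ethanol, 42.8, 54.9 and 47.4 in HKO control and 121, 182 and 139 in HKO ethanol. WT control and HKO ethanol overlapped each other and lay above every liver of WT ethanol and HKO control, which also overlapped. Ethanol lowered it in WT (-1.89 ± 0.36, adjusted *P* = 0.0232) and raised it in HKO (1.61 ± 0.18, adjusted *P* = 0.00234). The WT call was lost without WT control liver 1 (-1.76) or 2 (-1.81) or WT ethanol liver 2 (-1.98), while the HKO call held in all 6 such fits. *Srd5a1* was lower in HKO on the control diet (-1.62 ± 0.19, adjusted *P* = 0.00190). On ethanol the genotypes did not overlap, but the log2 FC of 1.89 ± 0.36 did not pass (adjusted *P* = 0.0633). Its transcripts share 13.6% of their 100-base windows with the predicted gene *Gm17108*, so some of its reads could belong to either.

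*Hsd3b2*, a dehydrogenase of the Hsd3b family, measured 44.7, 37.3 and 40.3 CPM in WT control, 10.4, 17.7 and 20.3 in WT ethanol, 11.5, 14.5 and 15.3 in HKO control and 33.7, 37.2 and 37.0 in HKO ethanol. WT control stood highest, HKO ethanol came next without overlap, and WT ethanol and HKO control overlapped below them. Ethanol lowered *Hsd3b2* in WT (-1.32 ± 0.24, adjusted *P* = 0.0199) and raised it in HKO (1.39 ± 0.13, adjusted *P* = 0.00148). The WT call was lost without WT control liver 1 (-1.25), 2 (-1.38) or 3 (-1.33). *Hsd3b2* was lower in HKO on the control diet (-1.56 ± 0.14, adjusted *P* = 0.000912), and on ethanol the log2 FC between genotypes was 1.15 ± 0.24 (adjusted *P* = 0.0713).

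*Hsd3b3* varied widely within groups, and no comparison passed. It measured 278, 221 and 62.3 CPM in WT control, 84.5, 131 and 164 in WT ethanol, 27.2, 21.4 and 108 in HKO control and 67.3, 77.1 and 266 in HKO ethanol, and all neighbouring groups in the order of means overlapped. Liver 3 was the lowest of WT control and the highest of the other groups, the numbers being those of the sample titles. The log2 FC was -0.55 ± 0.51 for ethanol in WT (adjusted *P* = 0.534), -1.83 ± 0.74 for HKO on the control diet (adjusted *P* = 0.104), 0.11 ± 0.54 for HKO on ethanol (adjusted *P* = 0.922) and 1.38 ± 0.76 for ethanol in HKO (adjusted *P* = 0.205). Without HKO control liver 3 the second became -2.95 (adjusted *P* = 0.0184) and the last 2.50 (adjusted *P* = 0.0369). The Hsd3b genes resemble each other: *Hsd3b2* shares 8.28% of its 100-base windows with other genes, mostly *Hsd3b3*, *Hsd3b3* shares 4.67%, and *Hsd3b5* shares 7.79% with *Hsd3b4* and *Gm10681*. How the counts divided such reads is uncertain. *Hsd3b6*, named after its values were seen, had no count in 8 livers and at most 4.22 CPM in the others. The summed counts of *Hsd3b2*, *Hsd3b3* and *Hsd3b6* passed in no comparison (log2 FC -1.77 for HKO on the control diet, adjusted *P* = 0.0569, edgeR with Benjamini-Hochberg adjustment, the smallest of the 5). Most counts of this sum come from *Hsd3b3* (mean count in WT control 9392, beside 2036 for *Hsd3b2*), so it says little about *Hsd3b2* alone.

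*Hsd17b2*, which inactivates steroids by oxidation, measured 162, 125 and 159.5 CPM in WT control, 125, 89.0 and 116 in WT ethanol, 53.5, 77.5 and 67.9 in HKO control and 148, 147 and 149 in HKO ethanol. HKO control was the lowest group and overlapped with no other, and the HKO ethanol livers lay within the WT control range. *Hsd17b2* was lower in HKO on the control diet (-1.16 ± 0.17, adjusted *P* = 0.00342) and ethanol raised it in HKO (1.16 ± 0.14, adjusted *P* = 0.00288). In WT the ethanol difference was -0.42 ± 0.15 (adjusted *P* = 0.133), and on ethanol the genotypes differed by 0.43 ± 0.13 (adjusted *P* = 0.134), neither of which passed. *Akr1c6*, the most abundant of the 9, measured 978, 771 and 762 CPM in WT control, 646, 758 and 861 in WT ethanol, 538, 464 and 658 in HKO control and 944, 849 and 854 in HKO ethanol. HKO control had the lowest mean and overlapped only with WT ethanol. It was lower in HKO on the control diet (-0.59 ± 0.18, adjusted *P* = 0.0414) and ethanol raised it in HKO (0.67 ± 0.16, adjusted *P* = 0.0218). Each of these calls held in only 1 of the 6 fits that omitted a liver, with log2 FC from -0.74 to -0.47 for the first and from 0.55 to 0.82 for the second.

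*Hsd11b1*, *Hsd17b13* and *Akr1d1* had higher means on ethanol in both genotypes. *Hsd11b1* measured 324, 352 and 252 CPM in WT control, 584, 527 and 479 in WT ethanol, 259, 211 and 303 in HKO control and 503, 378 and 458 in HKO ethanol. Every ethanol liver lay above every control liver. Ethanol raised it in WT (0.79 ± 0.15, adjusted *P* = 0.0242) and in HKO (0.79 ± 0.18, adjusted *P* = 0.0170), the latter lost without HKO ethanol liver 3 (0.77) and the former in 5 of 6 fits with 1 liver omitted (0.66 to 0.90, kept without WT ethanol liver 3). Between genotypes *Hsd11b1* differed by -0.26 ± 0.18 on the control diet (adjusted *P* = 0.324) and -0.25 ± 0.14 on ethanol (adjusted *P* = 0.333). *Hsd17b13* measured 248, 282 and 272 CPM in WT control, 675, 509 and 412 in WT ethanol, 235, 233 and 264 in HKO control and 337, 363 and 362 in HKO ethanol. Again every ethanol liver lay above every control liver. It rose in WT (1.01 ± 0.18, adjusted *P* = 0.0195), a call lost without WT control liver 1 (0.96), 2 (1.05) or 3 (1.02). In HKO its log2 FC of 0.54 ± 0.11 passed the adjusted *P* (0.0134) but not the FC of 1.5. On ethanol it was lower in every HKO liver than in any WT liver, at -0.59 ± 0.18, and did not pass (adjusted *P* = 0.137). *Akr1d1*, which also acts in bile acid synthesis, measured 118, 71.8 and 86.2 CPM in WT control, 204, 154 and 117 in WT ethanol, 44.9, 38.5 and 79.6 in HKO control and 168, 81.0 and 101 in HKO ethanol. Its groups overlapped with their neighbours, and its ethanol differences of 0.79 ± 0.25 in WT (adjusted *P* = 0.0909) and 1.10 ± 0.36 in HKO (adjusted *P* = 0.0538) did not pass. The second passed without HKO control liver 3 (1.49) or HKO ethanol liver 2 (1.31). Between genotypes it differed by -0.76 ± 0.30 on the control diet (adjusted *P* = 0.1001), which passed without HKO control liver 3 (-1.14), and by -0.44 ± 0.30 on ethanol (adjusted *P* = 0.425).

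**Figure D2:**
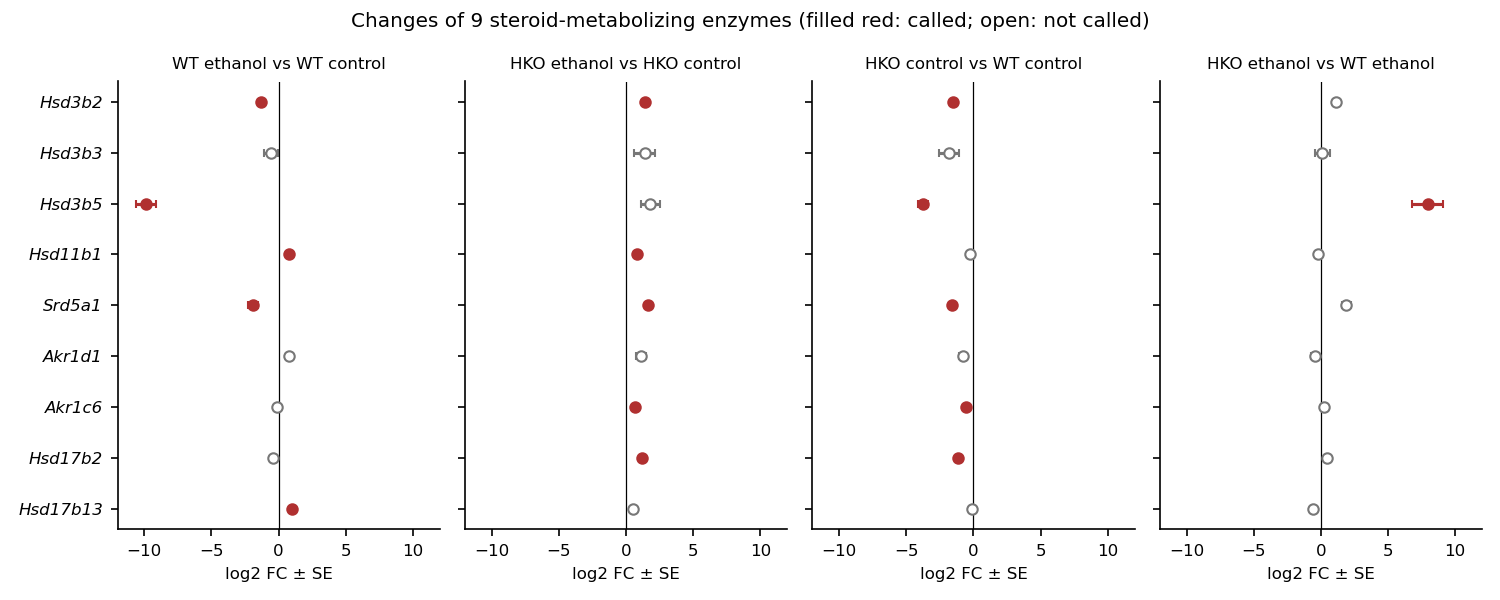
log2 FC with SE of each enzyme in the 4 comparisons of groups; filled points were called (adjusted *P* under 0.05 and FC above 1.5) and open points were not. *Hsd3b5* runs from -9.89 for ethanol in WT to 7.94 for HKO against WT on ethanol, while *Srd5a1* runs from -1.89 to 1.89.

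Over the 9 enzymes, ethanol in WT raised 2 and lowered 3, and 4 did not pass. Of all 14038 genes tested, 3.36% were called higher and 3.4% lower. The median log2 FC was -0.42 for the 9 and 0.03 for all genes, and the groups did not overlap for 5 of the 9 and for 32.9% of all genes. On the control diet 5 of the 9 were lower in HKO and 0 higher, where 10.1% of all genes were called lower and 9.77% higher. The median was -1.16 against -0.000962 for all genes, all 9 differences were negative, and 5 of the 9 did not overlap, beside 47.3% of all genes. Ethanol in HKO raised 5 of the 9 and lowered 0, where 10.3% of all genes were called higher and 11.7% lower. The median was 1.16 against -0.02, all 9 differences were positive, and 7 of the 9 did not overlap, beside 49.8%. On ethanol 1 of the 9, *Hsd3b5*, was higher in HKO and 0 lower, where 0.684% of all genes were called higher and 0.378% lower. The median was 0.22 against -0.01, and 5 of the 9 did not overlap, beside 27.9%. Comparisons that name the same group share its livers and are not independent of each other. The 9 were chosen with earlier results of these data known, so the values for all genes describe the background and do not test the set.

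The test of whether the ethanol effect differed between genotypes, the interaction, was called for 5 of the 9, all with a higher effect in HKO. Of all genes, 11.2% were called with a higher and 11.1% with a lower effect in HKO (adjusted *P* under 0.05, no FC required). The difference in log2 FC, HKO minus WT, was 11.72 ± 1.25 for *Hsd3b5* (adjusted *P* = 0.000314), 3.51 ± 0.44 for *Srd5a1* (adjusted *P* = 0.000651) and 2.72 ± 0.29 for *Hsd3b2* (adjusted *P* = 0.000314). It was 1.59 ± 0.23 for *Hsd17b2* (adjusted *P* = 0.00120) and 0.82 ± 0.23 for *Akr1c6* (adjusted *P* = 0.0250). The first 4 held in all 12 fits that omitted a liver. *Akr1c6* lost the call without WT control liver 1 (0.70), WT ethanol liver 2 (0.84), HKO control liver 1 (0.80) or HKO ethanol liver 1 (0.77). The difference was 0.01 ± 0.24 for *Hsd11b1* (adjusted *P* = 0.974), 0.32 ± 0.47 for *Akr1d1* (adjusted *P* = 0.671), -0.46 ± 0.22 for *Hsd17b13* (adjusted *P* = 0.154) and 1.96 ± 1.02 for *Hsd3b3* (adjusted *P* = 0.191). *Hsd17b13* passed without WT ethanol liver 3 (-0.61) and *Hsd3b3* without HKO control liver 3 (3.06). The median was 1.59 over the 9 and -0.03 over all genes.

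**Figure D3:**
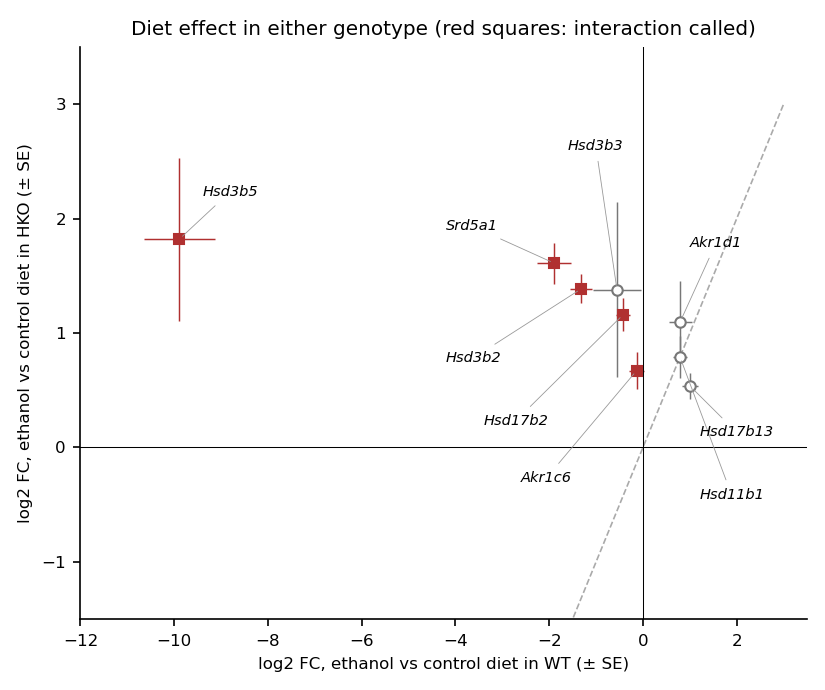
log2 FC of ethanol against the control diet in WT (horizontal) and in HKO (vertical) with SE; the dashed line marks equal effects and red squares the enzymes whose interaction was called. *Hsd3b5*, *Srd5a1*, *Hsd3b2*, *Hsd17b2* and *Akr1c6* lie above the line, and *Hsd11b1* lies on it at 0.79 and 0.79.

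Other steroid enzymes came from a list of 41 genes, of which 39 were in the table and 25 were tested. In WT, ethanol raised 4 of the 25 and lowered 4, with a median log2 FC of 0.03. Of all genes, 3.36% were called higher and 3.4% lower. *Cyp7b1*, an oxysterol and steroid hydroxylase, measured 341, 289.6 and 272 CPM in WT control and 45.2, 39.2 and 57.3 in WT ethanol (log2 FC -2.66, adjusted *P* = 0.000756). *Sult2a8*, a hepatic sulfotransferase, measured 390.2, 316 and 299 and 81.4, 128 and 154 CPM (log2 FC -1.46, adjusted *P* = 0.0152). Both were lower in every WT ethanol liver than in any WT control liver. *Nsdhl* (log2 FC -2.18, adjusted *P* = 0.0148) and *Hsd17b7* (log2 FC -1.23, adjusted *P* = 0.0182), which act in cholesterol synthesis, also fell. *Cyp39a1*, another oxysterol hydroxylase, rose from 9.82, 13.9 and 17.1 to 51.6, 37.5 and 51.4 CPM (log2 FC 1.80, adjusted *P* = 0.00558), and *Rdh16*, a retinol and steroid dehydrogenase, rose as well (log2 FC 1.02, adjusted *P* = 0.0201).

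Between genotypes on the control diet, 2 of the 25 were higher and 5 lower in HKO, with a median of -0.28. Of all genes, 9.77% were called higher and 10.1% lower. *Akr1c14*, a hydroxysteroid dehydrogenase that acts after the ring reductases, measured 275, 256 and 199 CPM in WT control, 378, 412 and 375 in WT ethanol, 48.2, 67.5 and 85.3 in HKO control and 257, 299.8 and 270.4 in HKO ethanol. All HKO control livers lay below all others (log2 FC -1.86, adjusted *P* = 0.00205). *Hsd3b7*, the family member of bile acid synthesis, was lower too (log2 FC -0.92, adjusted *P* = 0.00414), as were *Nsdhl* (log2 FC -0.80, adjusted *P* = 0.0153) and *Srd5a2* (log2 FC -1.09, adjusted *P* = 0.0377), and *Dhrs9*, a retinol and steroid dehydrogenase, was higher (log2 FC 1.61, adjusted *P* = 0.0383). *Sult1e1*, the estrogen sulfotransferase, measured 5.55, 0.700 and 1.78 CPM in HKO control and at most 0.102 in WT control (adjusted *P* = 0.00903). It passed the filter on low counts through HKO control, the group where it was high, so its calls here and below are not separate support. On ethanol *Hsd17b10*, a mitochondrial dehydrogenase, was the 1 of 25 that differed between genotypes (log2 FC 0.88, adjusted *P* = 0.0363), beside 0.684% of all genes called higher and 0.378% lower. Ethanol in HKO raised 5 of the 25 and lowered 3, with a median of 0.22, beside 10.3% of all genes called higher and 11.7% lower. *Akr1c14* (log2 FC 2.04, adjusted *P* = 0.00203), *Hsd17b11* (log2 FC 0.87, adjusted *P* = 0.00556), *Akr1c19* (log2 FC 1.80, adjusted *P* = 0.00719) and *Akr1c20* (log2 FC 1.03, adjusted *P* = 0.0177) rose. *Hsd17b7* fell (log2 FC -0.87, adjusted *P* = 0.0267), as did *Sult1e1*, which measured 0, 0.0617 and 0.158 CPM in HKO ethanol (log2 FC -5.34, adjusted *P* = 0.0127, on at most 7 reads per HKO ethanol library). The interaction was called for 7 of the 25, 5 with a higher effect in HKO and 2 with a lower one, beside 11.2% and 11.1% of all genes. The effect was higher for *Sult2a8* (log2 FC 2.33, adjusted *P* = 0.00348), *Akr1c14* (log2 FC 1.37, adjusted *P* = 0.00497), *Akr1c12* (log2 FC 0.63, adjusted *P* = 0.0104) and *Cyp7b1* (log2 FC 2.27, adjusted *P* = 0.0177). It was lower for *Dhrs9* (log2 FC -3.03, adjusted *P* = 0.0228) and *Sult1e1* (log2 FC -7.16, adjusted *P* = 0.0249), both at low levels, with at most 6.38 and 5.55 CPM in any liver.

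**Figure D4:**
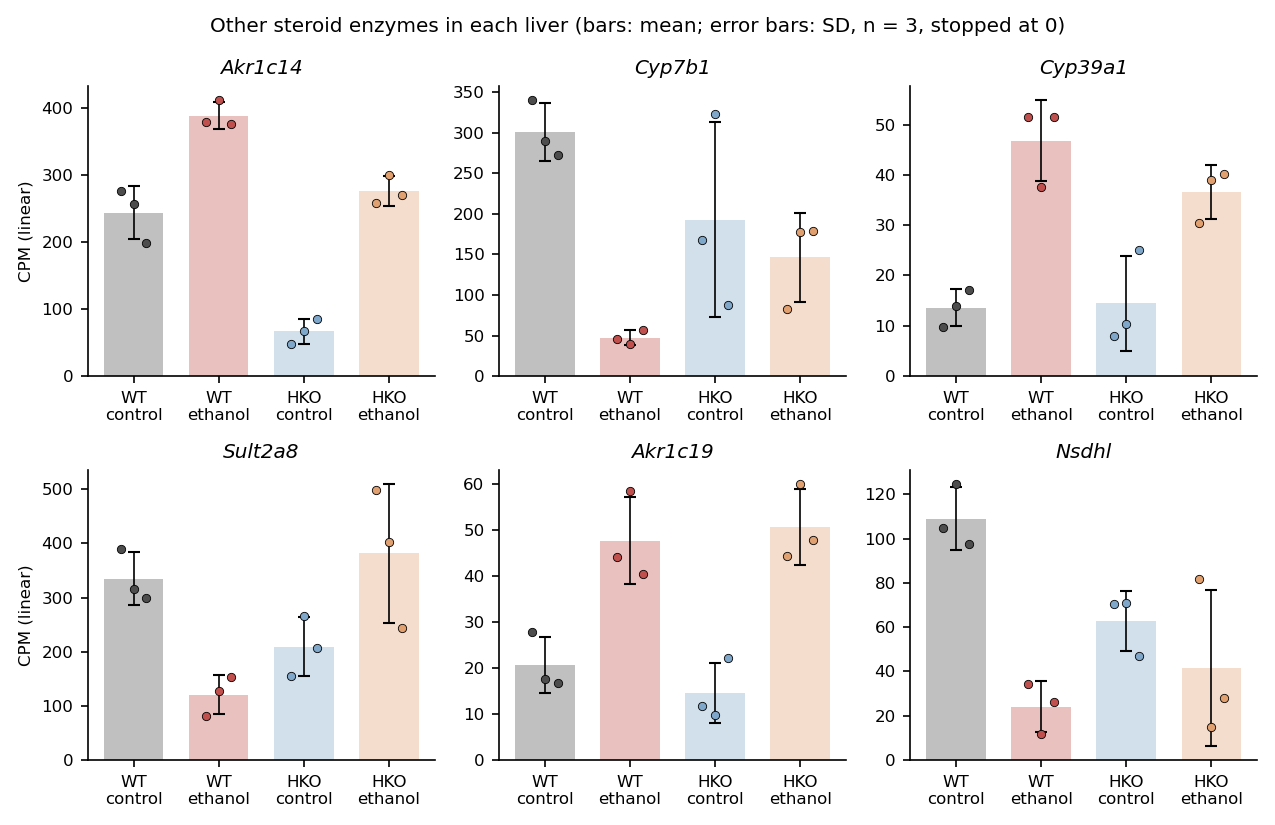
CPM (linear axes from 0) of 6 other steroid enzymes in each liver; points are livers, bars group means and error bars SD (n = 3). *Akr1c14* lies at 48.2, 67.5 and 85.3 CPM in HKO control, below every other liver, and *Cyp7b1* at 45.2, 39.2 and 57.3 CPM in WT ethanol.

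Among 9 steroid receptors and carriers, 5 were tested. Of all genes, 3.36% were called higher on ethanol in WT and 10.3% on ethanol in HKO. In HKO on the control diet 9.77% were called higher and 10.1% lower. *Serpina6*, the glucocorticoid-binding carrier, measured 214, 154 and 161 CPM in WT control and 574, 501 and 324 in WT ethanol (log2 FC 1.42, adjusted *P* = 0.0153). *Nr3c2*, the mineralocorticoid receptor, was lower (log2 FC -1.13, adjusted *P* = 0.00387) and *Esr1*, an estrogen receptor, higher (log2 FC 0.75, adjusted *P* = 0.0218) in HKO on the control diet. *Nr3c2* rose on ethanol in HKO (log2 FC 0.79, adjusted *P* = 0.0420). Of 8 genes that supply the redox cofactors, *Pgd* (log2 FC 0.77, adjusted *P* = 0.00509) and *Me1* (log2 FC 1.54, adjusted *P* = 0.00895), which make NADPH, rose on ethanol in WT, and *Me1* rose in HKO (log2 FC 0.85, adjusted *P* = 0.0344). *H6pd*, which makes NADPH beside *Hsd11b1* and was singled out after its values were seen, measured 610.3, 196 and 128 CPM in WT control, 418, 133 and 133 in WT ethanol, 239, 319 and 302 in HKO control and 567, 133 and 165 in HKO ethanol and passed in no comparison.

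A list of 20 male-biased liver genes, all tested, had 15 that fell and 0 that rose on ethanol in WT, with a median log2 FC of -2.67. Of all genes, 3.4% were called lower and 3.36% higher. The lists were chosen with earlier results of these data known. The male-biased genes that fell included *Selenbp2* (log2 FC -5.49, adjusted *P* = 0.000172), *Cyp4a12b* (log2 FC -6.28, adjusted *P* = 0.000292), *Cyp7b1*, whose values are given above, and *Mup20* (log2 FC -2.48, adjusted *P* = 0.000979). Of 26 female-biased genes, 20 were tested, and 10 rose and 0 fell, with a median of 2.43. *Cyp2b9* had no count in WT control and 793, 586 and 353 CPM in WT ethanol, and *Cyp2a4* none and 207, 471 and 354. Such genes passed the filter on low counts through other groups and could only rise from WT control. The counts and medians of female-biased genes against WT control therefore depend partly on this filter. On the control diet 8 male-biased genes were lower and 1 higher in HKO (median -0.87). There 3 female-biased genes were higher, *Sult1e1* among them, and 0 lower (median 2.13). On ethanol 4 male-biased genes were higher in HKO (median 1.76) and 1 female-biased gene lower (median -1.19). Ethanol in HKO raised 4 and lowered 2 male-biased genes (median 0.17) and raised 3 and lowered 2 female-biased genes (median 0.63). The interaction was called for 15 male-biased genes, all with a higher effect in HKO, and for 5 female-biased genes, all with a lower one. Of all genes, 9.77% were called higher and 10.1% lower in HKO on the control diet, and 0.684% and 0.378% in HKO on ethanol. Ethanol in HKO raised 10.3% and lowered 11.7%, and the interaction was called higher for 11.2% and lower for 11.1%. Genes of the Cyp2a, Cyp2b, Cyp4a and Mup families have near-identical copies, and their single values are uncertain.

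Of the growth hormone axis, 14 genes were tested. Among all genes, ethanol in WT gave 3.36% higher and 3.4% lower, and HKO on the control diet 9.77% and 10.1%. HKO on ethanol gave 0.684% and 0.378%, ethanol in HKO 10.3% and 11.7%, and the interaction 11.2% and 11.1%. Except for HKO on ethanol, the counts below lie near these shares. In WT *Prlr*, the prolactin receptor, was the 1 gene called on ethanol (log2 FC 0.82, adjusted *P* = 0.0344). On the control diet *Igfals*, a circulating partner of IGF1 (log2 FC -1.38, adjusted *P* = 0.00993), and *Ghr*, the growth hormone receptor (log2 FC -0.60, adjusted *P* = 0.0397), were lower in HKO, and *Hnf4a*, a hepatocyte transcription factor, was higher (log2 FC 0.97, adjusted *P* = 0.00331). Ethanol in HKO raised 2 genes, *Igfals* (log2 FC 1.48, adjusted *P* = 0.00939) and *Ghr* (log2 FC 0.61, adjusted *P* = 0.0192), and lowered 2, *Socs2* (log2 FC -2.89, adjusted *P* = 0.00536) and *Cish* (log2 FC -2.48, adjusted *P* = 0.0422), both of them feedback inhibitors that STAT5 induces. The interaction was called with a higher effect in HKO for *Igfals* (log2 FC 1.53, adjusted *P* = 0.00896), *Bcl6* (log2 FC 3.20, adjusted *P* = 0.0307) and *Ghr* (log2 FC 1.07, adjusted *P* = 0.0402) and with a lower one for *Socs2* (log2 FC -2.64, adjusted *P* = 0.0335). *Bcl6*, a repressor known to act at STAT5 sites, measured 66.3, 43.3 and 11.1 CPM in WT control, 8.82, 7.70 and 13.3 in WT ethanol, 74.1, 38.3 and 9.90 in HKO control and 92.5, 86.7 and 98.2 in HKO ethanol. It varied widely in both control groups and was higher in every HKO ethanol liver than in any other. By edgeR's test, HKO ethanol against WT ethanol gave a log2 FC of 3.22 (adjusted *P* = 0.00312). Against HKO control it gave 1.18, which did not pass (adjusted *P* = 0.165). *Cish* (log2 FC -2.17, adjusted *P* = 0.0181) and *Cux2*, a female-biased transcription factor (log2 FC -3.14, adjusted *P* = 0.0489), were lower in HKO on ethanol.

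Beside *Hsd17b13*, 16 proteins of the lipid droplet were tested. In WT 1 was called on ethanol, *G0s2*, an inhibitor of lipolysis (log2 FC 1.27, adjusted *P* = 0.0490). On the control diet 5 were higher in HKO, namely *Cidec*, a lipid droplet fusion protein (log2 FC 3.93, adjusted *P* = 0.00156), the droplet coat proteins *Plin4* (log2 FC 2.93, adjusted *P* = 0.00372) and *Plin2* (log2 FC 1.07, adjusted *P* = 0.0101), and the lipolysis inhibitors *Hilpda* (log2 FC 1.13, adjusted *P* = 0.00865) and *G0s2* (log2 FC 1.18, adjusted *P* = 0.0383), while *Hsd17b13* differed by -0.13 ± 0.11 (adjusted *P* = 0.435). Ethanol in HKO lowered *Plin2* (log2 FC -1.21, adjusted *P* = 0.00323), *Hilpda* (log2 FC -1.21, adjusted *P* = 0.00906) and *Cidec* (log2 FC -2.54, adjusted *P* = 0.0169) and raised *Bscl2*, the seipin gene (log2 FC 0.72, adjusted *P* = 0.00294), and *Hsd17b11*. Beside *Akr1d1*, 13 genes of bile acid synthesis were tested, among them *Cyp39a1*, *Akr1c14*, *Cyp7b1* and *Hsd3b7*, also counted above as other steroid enzymes. In WT 2 rose and 3 fell on ethanol, on the control diet 5 were lower in HKO, among them *Amacr* (log2 FC -1.09, adjusted *P* = 0.00105) and *Cyp8b1* (log2 FC -2.54, adjusted *P* = 0.00171), and 5 rose on ethanol in HKO. On ethanol 0 of the 13 bile acid genes were called between the genotypes. Among the lipid droplet proteins 1 was called there by edgeR's test, *Plin5*, higher in HKO (log2 FC 0.73, adjusted *P* = 0.0381). For both lists, the shares of all genes called higher and lower were 3.36% and 3.4% for ethanol in WT. They were 9.77% and 10.1% for HKO on the control diet, 10.3% and 11.7% for ethanol in HKO, and 0.684% and 0.378% for HKO on ethanol.

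The pattern of *Hsd3b5* over the 12 livers was set against 11879 tested genes, by the mean absolute difference of centred log2(CPM + 0.1). The nearest were *Slco1a1*, an organic anion transporter (1.31), *Cyp4a12b*, a fatty acid hydroxylase (1.47), and *Mup7*, a major urinary protein (1.51). *Slco1a1* had mean CPM of 345 in WT control, 8.18 in WT ethanol, 190.3 in HKO control and 217 in HKO ethanol. The same means were 107, 1.36, 80.7 and 90.0 for *Cyp4a12b* and 19523, 390.2, 6901 and 12239.9 for *Mup7*. *Hsd3b5* itself had 249.8 ± 7.68, 0.249 ± 0.316, 18.2 ± 8.91 and 64.0 ± 44.6 CPM (SD, n = 3). All 4 genes had their lowest mean in WT ethanol and their highest in WT control. The nearest genes were picked for likeness to *Hsd3b5* over these same 12 livers, so this shared order is not a separate result. The other 8 enzymes had less than 2 log2 units between their group means, and no nearest genes were sought for them.

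**Figure D5:**
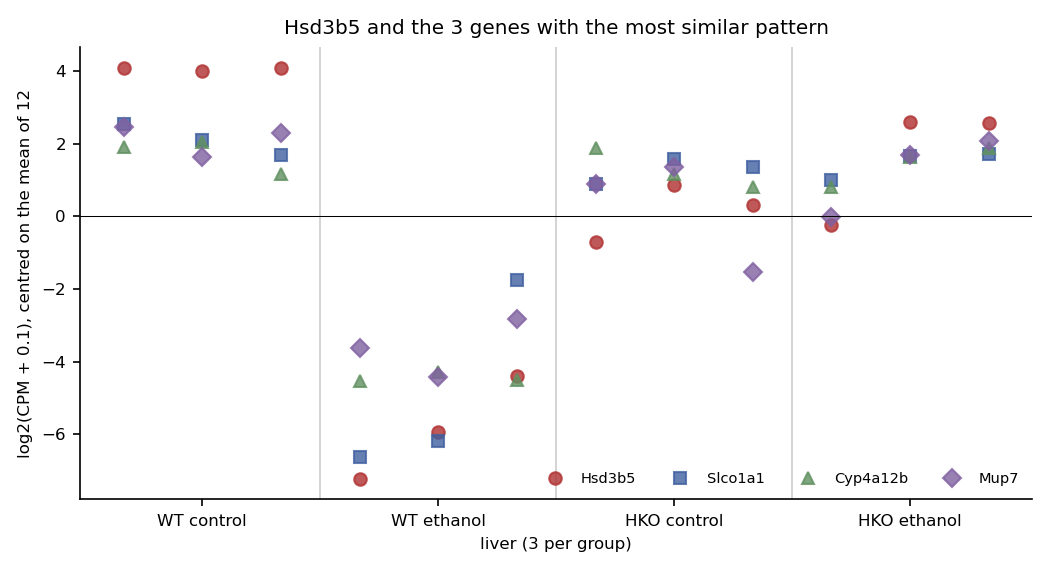
log2(CPM + 0.1) of *Hsd3b5*, *Slco1a1*, *Cyp4a12b* and *Mup7* in each of the 12 livers, each gene centred on its own mean. The genes lie lowest in the WT ethanol livers, with mean absolute differences from *Hsd3b5* of 1.31, 1.47 and 1.51.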

How the data were processed

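Per gene, the deposited table holds raw read counts and, made by the authors from the same libraries, FPKM and TPM. The submitters' processing notes name Trimmomatic 0.38, HISAT2 2.1.0, Bowtie2 2.3.4.1, StringTie 1.3.4d and mm10. How shared reads were divided and whether strand was used is not given in the sources used here. Counts were tested with edgeR 4.0.16 in R 4.3.3 (filterByExpr, TMM factors 0.925 to 1.16, quasi-likelihood, Benjamini-Hochberg over 14038 genes), on the 6 libraries of each pair or all 12 for the interaction. Pairs were called at an adjusted P under 0.05 and an FC above 1.5. The SE is the absolute log2 FC over the square root of F. A count of 3 equals 0.0425 to 0.0676 CPM, covering counting error only. Functions were tested on simulated data. Where genes of a list were named for a comparison, they were the called genes with the smallest adjusted P, at most 6, besides the 9 enzymes, Ahr, Cyp1a2 and the nearest genes in pattern. The enzymes and lists were chosen with earlier results of these data known, and the motifs after the files were seen. Alternatives were DESeq2 1.42.0, other scalings and filters, limma 3.58.1 on log2 FPKM, a replicate block and leaving out each library. No 2 of the 12 libraries were identical. Hsd17b8, Sts and Hnf6 were not analysed here.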

Additional observations from a re-analysis of the deposited data

Results flagged for a closer look

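The effect of ethanol differed between the genotypes for 5 of the 9 enzymes by edgeR's interaction test. The difference in log2 FC, HKO minus WT, was 11.7 for *Hsd3b5*, 3.51 for *Srd5a1*, 2.72 for *Hsd3b2*, 1.59 for *Hsd17b2* and 0.82 for *Akr1c6*. The estimated log2 FC of ethanol was negative in WT and positive in HKO for each of the 5, though for *Hsd17b2* and *Akr1c6* it was not called in WT and for *Hsd3b5* not in HKO. The summed Kupffer cell and leukocyte markers (161 to 433 FPKM in HKO control and 96.0 to 113 in HKO ethanol) and *Fgb* moved with diet in HKO too, and their part in these differences was not tested.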

How the results depend on the processing

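Of 717 alternative values of log2 FC for the 9 enzymes, 629 kept their direction and side of the threshold, 46 lost a call, 25 gained one and 17 changed sign. For ethanol in WT, 5 enzymes were called, 2 with a replicate block and 1 to 5 with 1 liver left out. For HKO on the control diet, 5 were called and 4 to 7 with 1 liver left out. For HKO against WT on ethanol, 1 was called, 4 with DESeq2, 3 with the study's threshold, with all 12 libraries in 1 fit or with a replicate block, 0 with limma on quantile-normalized log2(FPKM + 1) or with 10 counts in every library (where *Hsd3b5* was not tested), and 0 to 1 with 1 liver left out. For ethanol in HKO, 5 were called, 3 with either quantile-normalized limma fit and 3 (without HKO ethanol liver 3) to 8 (without HKO control liver 3) with 1 liver left out. The interaction was called for 5, and 4 to 6 with 1 liver left out. The block moved no other count of called enzymes by over 1.5 times. Deviations of same-numbered livers from their group means correlated at -0.088 to 0.178 and of others at -0.182 to 0.146. These ranges overlap, but with so few livers per group they cannot exclude a pairing. Signs changed for *Akr1c6* in WT (0.019 with limma on log2(FPKM + 1)), and for *Hsd3b3* between genotypes on ethanol, with -0.13 under a replicate block, -0.20 and -0.21 under quantile-normalized limma at pseudocounts 1 and 0.1, -0.31 under limma on log2(FPKM + 1) and -0.81 to 0.44 with 1 liver left out. In the interaction, *Hsd11b1* gave -0.16 in both quantile-normalized limma fits, -0.23 in the other and -0.11 to 0.15 with 1 liver left out, and *Akr1d1* gave -0.036 to 0.70 with 1 liver left out. The cause of these changes was not tested. Over all genes, ethanol in WT gave 949 calls (472 higher), 1440 with DESeq2, 503 with a replicate block, 366 to 448 without a WT control liver, and 632 higher and 200 lower with limma on log2(FPKM + 1). HKO against WT on ethanol gave 149 (96 higher), 1045 with DESeq2 (418 higher), 429 with all 12 libraries (223 higher), 243 with a replicate block, 93 and 68 with quantile-normalized limma, 67 higher and 193 lower with limma on log2(FPKM + 1), which moved the median of all genes to -0.13, and 7 to 189 with 1 liver left out. HKO on the control diet gave 2788, and 1772 and 1718 with limma at pseudocount 1 with and without quantile normalization. Ethanol in HKO gave 3090, and 1760 and 1859 in the same fits. The interaction gave 1576 higher and 1561 lower, and 810 higher and 2712 lower (median -0.14) with limma on log2(FPKM + 1). The rank of all 9 enzymes by level was the same in TPM. The range of *Hsd3b5* group means moved from 9.92 to 7.68 with log2(CPM + 1), and those of the other 8 enzymes stayed within their spread. *Hsd3b5* in WT ethanol rests on 0, 9 and 38 reads, which limits its log2 FC.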
